A study of Mus musculus with 9 samples.

Results

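The receptors for interferon and the genes that interferon switches on were followed in RNA-seq libraries of mouse BM ECs. The set held 47 genes, and every row of the deposited count table whose gene name was one of these symbols was taken. Together they filled 48 of its 46078 rows, because Gbp6 is listed under 2 identifiers. The cells were CD45-Ter119-CD31+ cells sorted from the BM of wild type B6 mice, and Sca-1, the surface protein encoded by Ly6a, split them into a Sca-1+ fraction (Sca-1high in the paper, 4 libraries, labelled 7, 13, 15 and 19) and a Sca-1- fraction (Sca-1low, 5 libraries, labelled 8, 10, 14, 16 and 22). The labels name no transgene, deletion or treatment in either group and give no age. The comparison asked how the expression of these genes differed between the fractions. The titles hold CD452 for libraries 13, 14 and 22, its digits without the letters for library 10, wt for libraries 8, 15, 16 and 19 and neither for library 7, and do not say what these marks mean. The titles of libraries 15 and 16 share a number that may name a mouse. The labels do not say whether every library came from a separate animal, so p-values measure the spread between these libraries, which may be partly technical.

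Interferons are secreted proteins, and cells release those of type I mainly when they sense viral or bacterial nucleic acid. Type I interferons bind Ifnar1 and Ifnar2, and interferon gamma, the type II interferon, binds Ifngr1 and Ifngr2. The type I receptor signals through Stat2, which joins Irf9 on the interferon-stimulated response element, and the type II receptor signals to the gamma-activated site. The genes switched on include RNA sensors, GTPases that attack vacuoles of pathogens, and proteins that block viral entry, translation or release. Ly6a, which defined the fractions, is itself known to be raised by interferon. Many of these genes are also expressed at a low level in cells that no infection has reached.

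Values are CPM, which are counts scaled to library size with edgeR's TMM factors, and in lists of values the libraries stand in the order 7, 13, 15 and 19 for Sca-1+ and 8, 10, 14, 16 and 22 for Sca-1-. Libraries held 23058385 to 24657204 counts in the Sca-1+ fraction and 21581653 to 25959818 in the Sca-1- fraction, and 3 counts, taken as the floor, equalled 0.102 to 0.116 and 0.0995 to 0.209 CPM. No molecular identifiers were used, so floors cover counting error only. Ly6a had a mean of 1131 CPM in the Sca-1+ libraries (SD 186, n = 4) against 0.678 CPM in the Sca-1- libraries (SD 0.523, n = 5). Markers went against the endothelial label of the Sca-1- fraction, which is called by its gate here. The 21 endothelial markers other than Pecam1, Esam and Vwf summed to 269 to 695 CPM in the Sca-1- libraries against 8971 to 11420 CPM in the Sca-1+ libraries, and Cdh5, the endothelial cadherin, had a mean of 7.13 CPM against 264 CPM. Pecam1 and Esam were not called, and Vwf was lower in Sca-1+ ECs (log2 fold changes of 0.743, 0.222 and -3.36). With these 3 genes the markers summed to 1566 to 5546 CPM in the Sca-1- libraries against 11760 to 13980 CPM in the Sca-1+ libraries. The 16 megakaryocyte markers summed to 26090 to 109600 CPM in the Sca-1- libraries and 47.8 to 96.9 CPM in the Sca-1+ libraries. All 16 were lower in Sca-1+ ECs, and 21 of the full list of 24 endothelial markers were higher. The median log2 fold change was -10.1 and 4.36 for these lists. In bulk RNA, fewer cells of a type and less RNA per cell cannot be told apart, and the part of cell composition in each difference below was not tested. Library 10 had the smallest TMM factor, 0.581. The labels open with running numbers, all lower in the Sca-1+ libraries than in the Sca-1- libraries, so whatever that numbering follows and the fraction cannot be told apart.

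Most members, from receptors to targets, were higher in Sca-1+ ECs, and 5 targets were lower. Of the 46 members that passed edgeR's filter on low counts, 37 were higher in Sca-1+ ECs, 5 were lower (Ifit1, Ifit2, Isg20, Igtp and Ifitm1) and 4 were not called (Mx1, Oas1a, Oasl1 and Rsad2) at an adjusted p under 0.05. Oas3 did not pass the filter, and neither did the second Gbp6 row, which stood at 0 in all 9 libraries. Over the 15937 genes tested, 23.3% were called higher and 21.4% lower. The members' shares were 80.4% and 10.9%. With library sizes alone, which set the median of all genes at 0.43, the shares of all genes were 26.1% and 15.3% and the members' counts were again 37 and 5. Without Sca-1+ library 15, 3 members were called lower, since Ifit1 and Ifitm1 then missed the threshold. That fit also called fewer of all genes tested, 18.9% higher and 17.4% lower. With the mark in the titles (CD452 or its digits, or wt) as a term and library 7 left out, a fit chosen after seeing the data, 32 members were called higher and 4 lower, against 17.1% and 15.8% of all genes tested. In that fit Ifnar1, Ifit1, Ifit2, Mx2, Dhx58, Cmpk2 and Zbp1 were not called (adjusted p = 0.0555 to 0.114) and Mx1 was called lower. The median log2 fold change of the tested members was 1.90, against 0.07 over all genes tested, and single members ranged from -3.93 (Ifitm1) to 6.14 (Iigp1). Every Sca-1+ library stood above every Sca-1- library for 34 members, and below for 2, Isg20 and Igtp, where 24.7% and 18.8% of all tested genes did. Only Iigp1 and Gbp4 had a larger log2 fold change than the median endothelial marker.

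**Figure D1:**
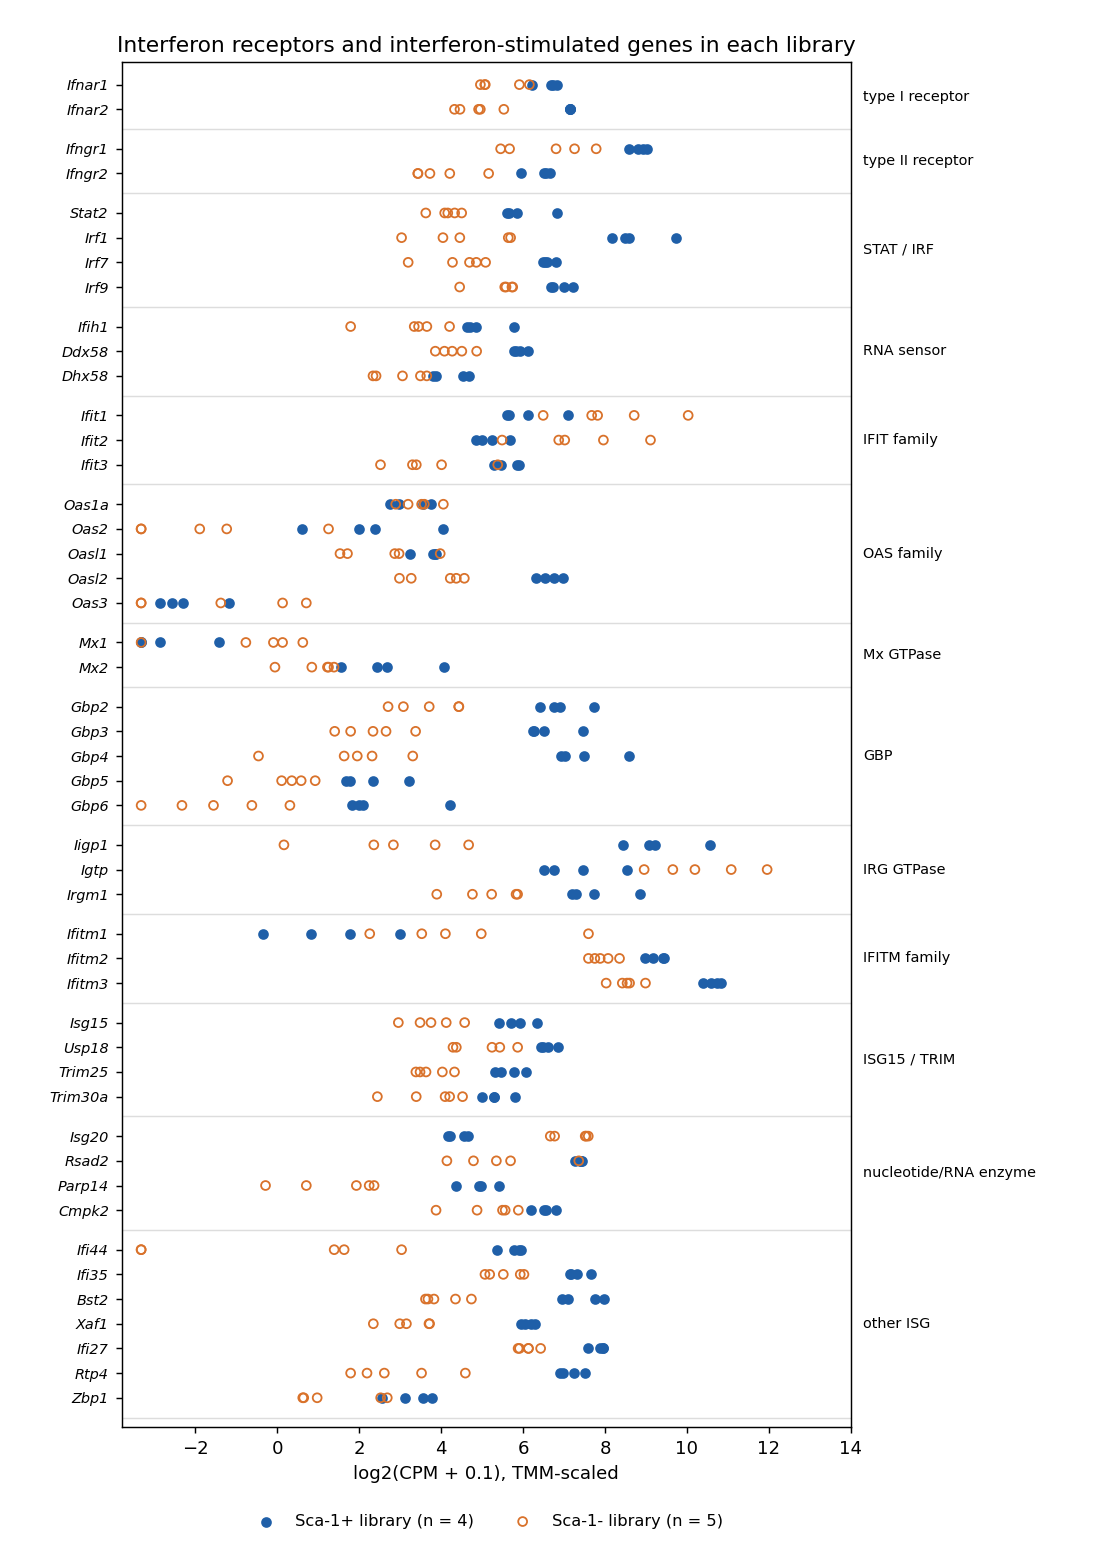
Level of each member gene in each library as log2(CPM + 0.1), grouped by role, with filled blue points for the 4 Sca-1+ libraries and open orange rings for the 5 Sca-1- libraries. The blue points stand clear to the right for 34 genes and clear to the left for Isg20 and Igtp.

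The sequence that the type I signal is known to read, GAAANNGAAA, was searched on both strands of RefSeq promoters, taken as 250 bases before to 50 bases after each gene's start. Promoters were matched for 35 of the 47 members. It was found in 18 of these (51.4%), against 3.99% of the 27025 genes with a promoter. The members were listed as interferon receptors and interferon-stimulated genes. So this share, and that of the gamma-activated site below, describe the list and are no result of comparing the fractions. By call, the members holding GAAANNGAAA were 13 of 26 called higher, 2 of 5 called lower, 2 of 3 not called, and Oas3. These 5 stretches of 80 bases are shown because they hold the matches of genes that moved in opposite directions, Ifit1 and Igtp lower and Ifit3, Isg15 and Bst2 higher. Each is written 5′ to 3′ on the gene's strand, with GAAANNGAAA or its reverse complement TTTCNNTTTC in capitals (RefSeq, GRCm38.p6).
Ifit1 (chr19:34640750-34640829, plus strand): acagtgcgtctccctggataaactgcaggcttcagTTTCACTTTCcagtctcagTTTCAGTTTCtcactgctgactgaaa
Ifit3 (chr19:34583338-34583417, plus strand): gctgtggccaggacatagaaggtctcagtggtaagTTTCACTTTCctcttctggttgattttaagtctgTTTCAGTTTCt
Igtp (chr11:58199476-58199555, plus strand): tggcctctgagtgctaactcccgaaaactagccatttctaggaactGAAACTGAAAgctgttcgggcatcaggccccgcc
Isg15 (chr4:156200852-156200931, minus strand): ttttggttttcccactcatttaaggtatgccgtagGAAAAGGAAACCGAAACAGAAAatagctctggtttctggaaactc
Bst2 (chr8:71537558-71537637, minus strand): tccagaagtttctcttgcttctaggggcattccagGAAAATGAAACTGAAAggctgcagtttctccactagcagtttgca
Ifit1, which fell, and Ifit3, which rose, each held 2 matches, both in the same orientation, centred 99 and 80 bases before the start in Ifit1 and 151 and 117 bases before it in Ifit3. Isg15 held 3 overlapping matches and Bst2 held 2. Irgm1 held 2 at 25 and 19 bases before the start, and Igtp held 1 at 29 bases before it. So the letters were present in genes of both directions. The gamma-activated site letters, TTCNNNGAA, which read the same on both strands, were found in 11 of 35 member promoters (31.4%) against 9.55% of all, among them 7 of 26 called higher and 3 of 5 called lower. In Bst2 and Ifitm3 it overlapped a response element match. A match is only a run of letters and does not show that a factor was bound.

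**Figure D2:**
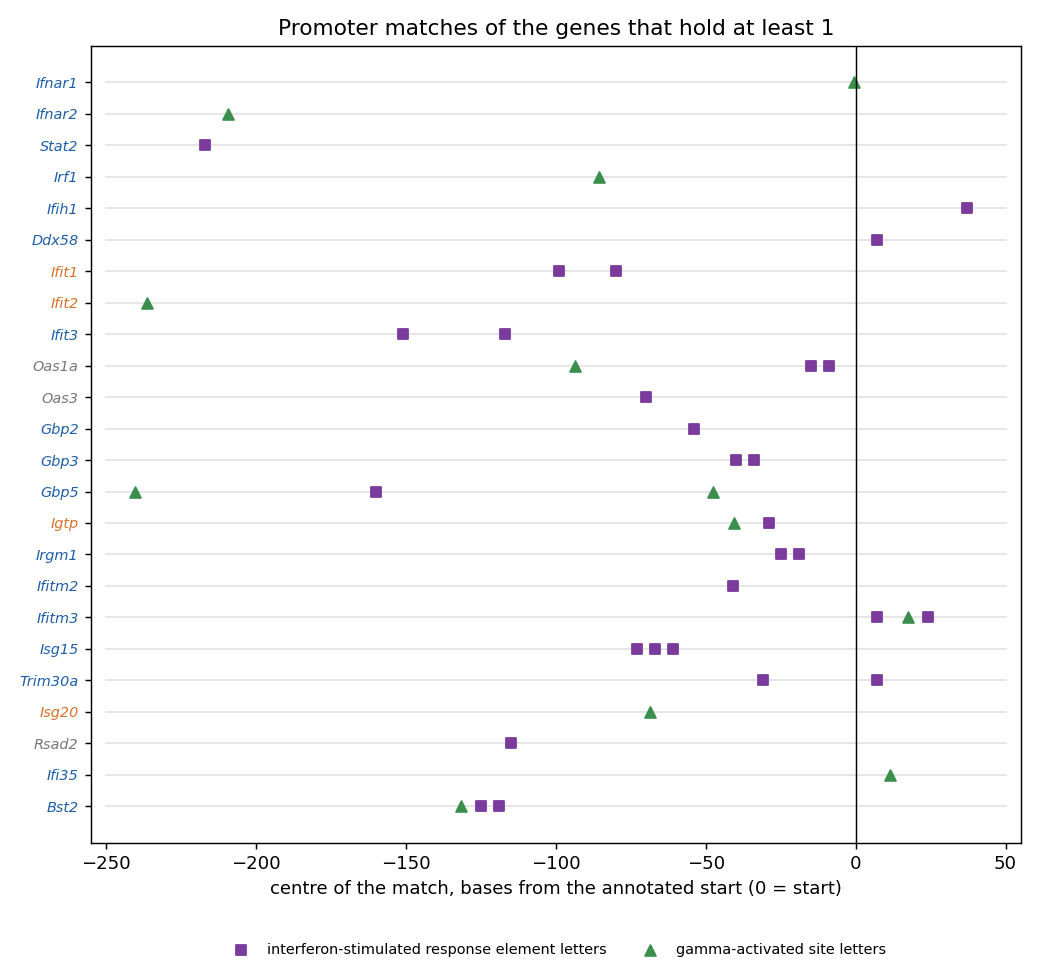
Position of each match relative to the annotated start (0) in the promoters of members with at least 1 match, in bases; squares are response element letters and triangles gamma-activated site letters. Gene names are blue where the gene was called higher in Sca-1+ ECs, orange where lower and grey where not called or not tested, and matches stand beside names of every colour.

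All 4 receptor subunits were higher in Sca-1+ ECs, and for each every Sca-1+ library lay above every Sca-1- library. Ifnar1 (ENSMUSG00000022967, chromosome 16 from 91485238 to 91507441), a chain of the type I receptor, was counted at 113, 74.6, 102 and 106 CPM in the Sca-1+ libraries and 60.01, 71.1, 33.7, 33.4 and 30.99 CPM in the Sca-1- libraries (a log2 fold change of 1.12 with a standard error of 0.29, adjusted p = 0.0108). Its closest libraries, Sca-1+ 13 and Sca-1- 10, differed by little, and without Sca-1- library 14 its adjusted p was 0.0551. Ifnar2 (ENSMUSG00000022971, chromosome 16 from 91372783 to 91405589), the other chain, was the steadiest member across the Sca-1+ libraries, at 141, 141, 142 and 142 CPM in the Sca-1+ libraries and 21.9, 19.96, 30.1, 46.1 and 30.9 CPM in the Sca-1- libraries (a log2 fold change of 2.25 with a standard error of 0.25, adjusted p = 0.000105). Ifngr1 (ENSMUSG00000020009, chromosome 10 from 19591949 to 19610229), the ligand-binding chain of the type II receptor, was counted at 487, 522, 450 and 383 CPM in the Sca-1+ libraries and 50.8, 43.7, 153, 220.3 and 112 CPM in the Sca-1- libraries (a log2 fold change of 1.99 with a standard error of 0.45, adjusted p = 0.00499). Its Sca-1- libraries were spread widely, with 8 and 10 low and 16 high. Ifngr2 (ENSMUSG00000022965, chromosome 16 from 91547072 to 91565623), the signalling chain, was counted at 91.3, 93.8, 101 and 61.7 CPM in the Sca-1+ libraries and 18.4, 10.7, 10.7, 35.6 and 13.1 CPM in the Sca-1- libraries (a log2 fold change of 2.29 with a standard error of 0.38, adjusted p = 0.00086). In both type II subunits library 19 was the lowest Sca-1+ library. Ifnar1, Ifnar2 and Ifngr2 lie within 1 interval of chromosome 16, from 91372783 to 91565623, and Ifnar2 shares exon sequence on its strand with Gm21970, so a small part of its counts is uncertain. Scaled by exon length, the mean level of the subunits in Sca-1+ ECs was ordered Ifngr1 (162 ± 20.95 CPM per kb), Ifnar2 (42.5 ± 0.258), Ifngr2 (23.1 ± 4.61) and Ifnar1 (16.7 ± 2.86; SD, n = 4), and between neighbours in this order the ranges of mean ± SD overlapped for Ifngr2 and Ifnar1 alone. In the Sca-1- fraction Ifngr1 was again first, at 40.7 ± 25.9 CPM per kb (SD, n = 5), and the other subunits lay between 4.70 and 8.95.

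The transducer and interferon regulatory factors were higher in Sca-1+ ECs, Irf1 by far the most. Stat2 (chromosome 10 from 128270559 to 128292849), which carries the type I signal to the nucleus, was counted at 57.7, 48.5, 50.2 and 114 CPM in the Sca-1+ libraries and 12.2, 16.9, 22.6, 17.8 and 20.01 CPM in the Sca-1- libraries (a log2 fold change of 1.92 with a standard error of 0.30, adjusted p = 0.000671). Irf1 (chromosome 11 from 53770014 to 53778374), an early target of interferon gamma that drives many other members, was counted at 289.9, 357, 386 and 856 CPM in the Sca-1+ libraries and 21.9, 8.09, 16.4, 49.7 and 51.7 CPM in the Sca-1- libraries (a log2 fold change of 3.997 with a standard error of 0.59, adjusted p = 0.000444). Its lowest Sca-1+ library was still several times its highest Sca-1- library, and library 19 stood far above the other Sca-1+ libraries. Irf7 (chromosome 7 from 141262706 to 141266481), which amplifies type I interferon production, was counted at 92.6, 96.4, 89.4 and 111 CPM in the Sca-1+ libraries and 9.06, 25.8, 19.3, 33.9 and 28.9 CPM in the Sca-1- libraries (a log2 fold change of 2.06 with a standard error of 0.33, adjusted p = 0.000746). Irf9 (chromosome 14 from 55603571 to 55610030), the DNA-binding partner of Stat2, had the smallest difference of the group, at 103, 127, 106 and 148 CPM in the Sca-1+ libraries and 21.8, 47.9, 46.8, 52.9 and 53.6 CPM in the Sca-1- libraries (a log2 fold change of 1.44 with a standard error of 0.27, adjusted p = 0.00175). Sca-1- library 8 was low for Irf7 and Irf9 alike. Irf1 and Irf7 overlap exons of another gene on the opposite strand (Gm17334 and Phrf1) and Irf9 shares exon sequence with Rnf31, and the use of strand in counting is not given in the sources used here.

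The RNA sensors, helicases of the cytoplasm that recognise viral RNA, were all higher in Sca-1+ ECs with no overlap. Ifih1 (MDA5) had the largest difference, at 24.9, 28.9, 25.8 and 54.5 CPM in the Sca-1+ libraries and 3.36, 10.1, 18.4, 12.5 and 10.8 CPM in the Sca-1- libraries (a log2 fold change of 1.61 with a standard error of 0.44, adjusted p = 0.0126). Without both Sca-1+ library 19 and Sca-1- library 10 it was 1.20 and not called (adjusted p = 0.0841). Ddx58 (RIG-I) differed by 1.56 on the log2 scale. Dhx58 (LGP2), a regulator of the other sensors, had the smallest difference, at 25.6, 23.1, 14.5 and 13.7 CPM in the Sca-1+ libraries and 5.22, 4.95, 8.22, 11.2 and 12.4 CPM in the Sca-1- libraries (a log2 fold change of 1.19 with a standard error of 0.36, adjusted p = 0.0211). Its fractions nearly touched, since Sca-1+ library 19 and Sca-1- library 22 were close, and without Sca-1+ library 7 or 13 its adjusted p was 0.0696 or 0.0596.

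The IFIT genes, which encode proteins that bind foreign RNA and block its translation and lie close together on chromosome 19, did not move together. Ifit1 (chromosome 19 from 34640871 to 34650009) was counted at 50.1, 69.6, 49.04 and 137 CPM in the Sca-1+ libraries and 419, 1045, 226, 89.8 and 204 CPM in the Sca-1- libraries, lower in Sca-1+ ECs (a log2 fold change of -2.38 with a standard error of 0.69, adjusted p = 0.0171). Ifit2 (chromosome 19 from 34550694 to 34576419) was also lower, at 37.4, 28.6, 32.1 and 51 CPM in the Sca-1+ libraries and 249, 552, 129, 44.8 and 117 CPM in the Sca-1- libraries (a log2 fold change of -2.55 with a standard error of 0.64, adjusted p = 0.00861). In both genes Sca-1- library 10 was the highest and Sca-1- library 16 the lowest, and library 16 lay within the range of the Sca-1+ libraries. Without Sca-1- library 10 the log2 fold change was -1.69 for Ifit1 and -1.93 for Ifit2. Without Sca-1+ library 7 or 15 the adjusted p of Ifit1 was 0.0529 or 0.0547. Ifit3 (chromosome 19 from 34583531 to 34588731), between them on the chromosome and a known partner of the family, was higher, at 39.01, 59.8, 44.3 and 57.9 CPM in the Sca-1+ libraries and 16.02, 41.6, 9.75, 5.64 and 10.4 CPM in the Sca-1- libraries (a log2 fold change of 1.60 with a standard error of 0.51, adjusted p = 0.0271). Its fractions overlapped through Sca-1- library 10, without which the log2 fold change was 2.20, and its adjusted p lay between 0.0587 and 0.0945 without Sca-1+ library 13 or 19, or Sca-1- library 14, 8 or 22. Ifit3 shares 51.2% of its 50-base stretches with Ifit3b, so its own level is uncertain. Within a library the ratio of Ifit1 to Ifit3 counts, set side by side after the values were seen, was 1.11 to 2.36 in the Sca-1+ libraries and 15.9 to 26.2 in the Sca-1- libraries.

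The OAS genes, whose enzymes make the messenger that activates RNase L, and the Mx GTPases, which block virus assembly, gave few firm calls. Oasl2, an OAS-like protein, differed the most clearly, with Sca-1+ libraries at 108, 92.7, 79.02 and 126 CPM and Sca-1- libraries at 7.802, 20.6, 18.6, 9.55 and 23.6 CPM (a log2 fold change of 2.66 with a standard error of 0.35, adjusted p = 0.000229). Oas2 had the largest fitted difference but low levels, at 1.43, 5.103, 3.86 and 16.3 CPM in the Sca-1+ libraries and 2.28, 0, 0.1695, 0 and 0.325 CPM in the Sca-1- libraries (a log2 fold change of 3.61 with a standard error of 1.31, adjusted p = 0.0457). Library 19 was the highest of its Sca-1+ libraries, Sca-1- library 8 overlapped them, and leaving out any of 7 of the 9 libraries took its adjusted p to between 0.0531 and 0.157. The log2 fold change was 2.66 without library 19 and 5.60 without Sca-1- library 8. Oas1a was the smallest, at 6.604, 11.6, 7.69 and 13.4 CPM in the Sca-1+ libraries and 7.32, 11.9, 11.4, 9.05 and 16.5 CPM in the Sca-1- libraries, and was not called (a log2 fold change of -0.19 with a standard error of 0.34, adjusted p = 0.67). It shares 57.6% of its 50-base stretches with Oas1g. Oasl1 was not called either (a log2 fold change of 0.83 with a standard error of 0.49, adjusted p = 0.194), with Sca-1- library 16 at 15.7 CPM above every Sca-1+ library. Without that library its log2 fold change was 1.30 and its adjusted p 0.0291. Oas3 was between 0.0386 and 0.340 CPM in the Sca-1+ libraries and between 0 and 1.54 CPM in the Sca-1- libraries, and at or under the floor of 3 counts in 3 of 4 and 2 of 5 libraries. Mx2 was counted at 5.31, 2.86, 6.28 and 16.7 CPM in the Sca-1+ libraries and 2.28, 2.51, 1.695, 0.862 and 2.24 CPM in the Sca-1- libraries (a log2 fold change of 2.02 with a standard error of 0.55, adjusted p = 0.0127), and without Sca-1+ library 19 its log2 fold change was 1.33 and its adjusted p 0.0561. Its gene model is annotated as a polymorphic pseudogene. Mx1 was at or under the floor in 3 of 4 Sca-1+ libraries and 1 of 5 Sca-1- libraries, at 0.272, 0, 0 and 0.0386 CPM in the Sca-1+ libraries and 0, 0.837, 1.44, 0.995 and 0.488 CPM in the Sca-1- libraries, and was not called (a log2 fold change of -3.19 with a standard error of 1.31, adjusted p = 0.0716). Leaving out Sca-1+ library 7 or Sca-1- library 8 brought its adjusted p to 0.0241 or 0.0258, with log2 fold changes of -5.45 and -3.6.

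The guanylate-binding proteins, large GTPases that coat and break pathogen vacuoles and answer above all to interferon gamma, were higher in Sca-1+ ECs as a whole family. All 5 were called, none overlapped between the fractions, and log2 fold changes ran from 2.18 to 5.52 with a median of 4.16. Gbp4 (chromosome 5 from 105115767 to 105139586) was counted at 122, 179, 130.1 and 387 CPM in the Sca-1+ libraries and 3.001, 0.628, 3.77, 4.87 and 9.802 CPM in the Sca-1- libraries (a log2 fold change of 5.52 with a standard error of 0.70, adjusted p = 0.00019). Gbp5 was the smallest and among the lowest in level, at 3.098, 3.3, 4.97 and 9.23 CPM in the Sca-1+ libraries and 1.8, 0.977, 1.399, 0.332 and 1.18 CPM in the Sca-1- libraries (a log2 fold change of 2.18 with a standard error of 0.56, adjusted p = 0.00917). Without both library 19 and Sca-1- library 10 the value for Gbp5 was 1.64 and not called (adjusted p = 0.0725). Library 19 was the highest Sca-1+ library for every one of the 5, at 1.97 to 4.72 times the median of the other Sca-1+ libraries. The log2 fold change of Gbp6, 4.16, was 3.21 without library 19 and 5 without Sca-1- library 22. Gbp4 overlaps Gbp8 and Gbp9 on its strand, and the counted Gbp6 identifier shares 70.7% of its 50-base stretches with Gm43302.

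The immunity-related GTPases, which work with the guanylate-binding proteins on pathogen vacuoles, split in direction. Iigp1 (chromosome 18 from 60376027 to 60392634) had the largest difference of all members, at 346, 595, 543 and 1510 CPM in the Sca-1+ libraries and 1.02, 5.02, 7.04, 14.4 and 25.4 CPM in the Sca-1- libraries (a log2 fold change of 6.14 with a standard error of 0.88, adjusted p = 0.000369). Irgm1, a regulator of the family, was higher too, at 146, 211, 156 and 461 CPM in the Sca-1+ libraries and 14.8, 27.1, 37.5, 58.2 and 56.7 CPM in the Sca-1- libraries (a log2 fold change of 2.65 with a standard error of 0.48, adjusted p = 0.00137). Igtp (chromosome 11 from 58199556 to 58207591), also known as Irgm3 and the partner of Irgm1 in that role, went the other way, at 91.6, 176, 107 and 374 CPM in the Sca-1+ libraries and 2165, 3975, 1171, 496 and 806 CPM in the Sca-1- libraries (a log2 fold change of -3.20 with a standard error of 0.71, adjusted p = 0.00441). The log2 fold change of Iigp1 was 5.55 without Sca-1+ library 19 and 6.75 without Sca-1- library 22. The fractions did not overlap for any of the 3 genes, and the fall of Igtp was called under every alternative run. In counts of one library, Igtp was 0.626 to 0.838 times Irgm1 in the Sca-1+ libraries and 8.52 to 147 times Irgm1 in the Sca-1- libraries, a comparison made after the values were seen. Igtp shares exon sequence on its strand with Irgm2 (11.8% of its 50-base stretches), and Irgm2 itself was counted at a mean of 62.4 and 35.8 CPM and was not called (adjusted p = 0.141). Scaled by exon length, Igtp had the highest mean of the members in the Sca-1- fraction at 852 ± 696 CPM per kb (SD, n = 5) and the ninth in Sca-1+ ECs at 92.7 ± 64.2 (SD, n = 4). Libraries 8 and 10 carried that Sca-1- mean, and in libraries 14, 16 and 22 Ifitm3 stood above Igtp on this scale.

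**Figure D3:**
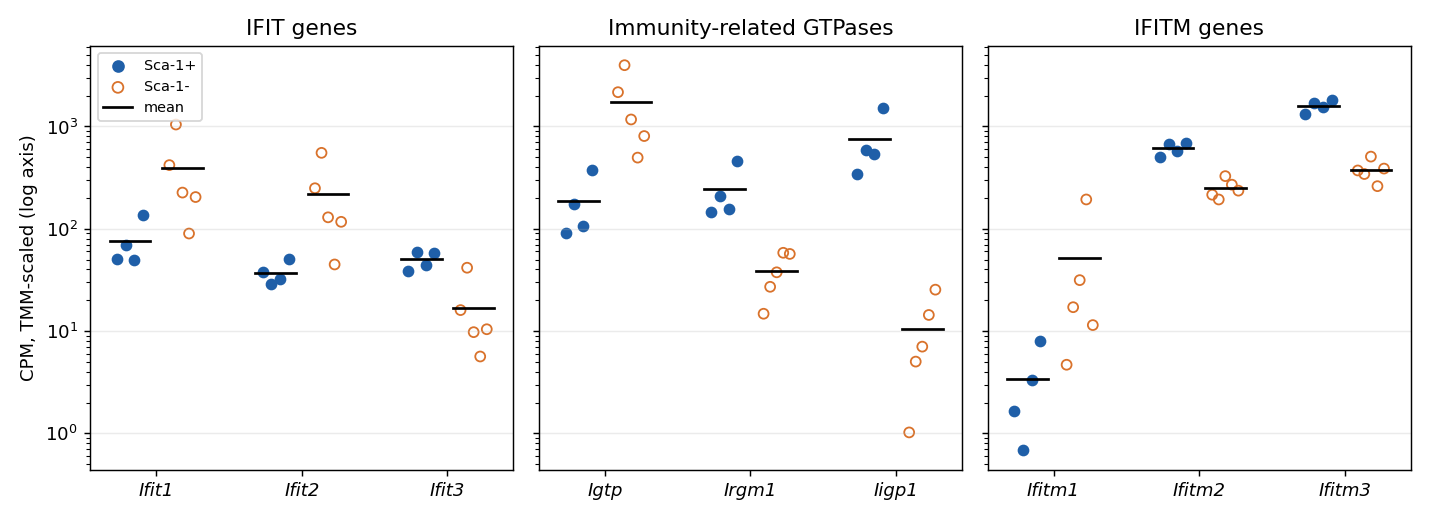
CPM on a log axis in each library for the IFIT genes, the immunity-related GTPases and the IFITM genes, with filled blue points for Sca-1+, open orange rings for Sca-1- and black bars for means. In each family at least 1 gene is lower in Sca-1+ ECs (Ifit1, Ifit2, Igtp, Ifitm1) while another gene of the family is higher.

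The IFITM proteins, which stop viruses from fusing with cell membranes, included the most abundant members. Ifitm3 (chromosome 7 from 141009586 to 141010770) was counted at 1336, 1700, 1541 and 1821 CPM in the Sca-1+ libraries and 372, 343, 508, 261 and 388 CPM in the Sca-1- libraries (a log2 fold change of 2.10 with a standard error of 0.25, adjusted p = 0.000151). Ifitm2 differed by 1.30 on the log2 scale, and its exons overlap those of Gm45717 on its strand. It shares 48.5% of its 50-base stretches with other genes, mostly Gm45717, so its own level is uncertain. Ifitm1 (chromosome 7 from 140967221 to 140969825), from the same cluster, was lower, at 1.67, 0.6804, 3.35 and 7.91 CPM in the Sca-1+ libraries and 4.68, 17.1, 31.4, 193 and 11.4 CPM in the Sca-1- libraries (a log2 fold change of -3.93 with a standard error of 1.20, adjusted p = 0.0219). One library, Sca-1- 16, carried most of that mean, and the lowest Sca-1- library, 8, lay under Sca-1+ library 19. Without library 16 the log2 fold change was -2.25 (adjusted p = 0.0426), without Sca-1+ library 19 it was -4.76, and without Sca-1+ library 7, 13 or 15 the adjusted p lay between 0.0549 and 0.0618. By its mean per kb of exon, Ifitm3 was the first member in Sca-1+ ECs at 2358 ± 309 CPM per kb (SD, n = 4) and the second in the Sca-1- fraction at 552 ± 131 (SD, n = 5), after Igtp. The mean of Igtp was carried by Sca-1- libraries 8 and 10.

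The ISG15 system, a ubiquitin-like tag with its enzymes, and the TRIM ligases were higher in Sca-1+ ECs for all 4 members with no overlap. Isg15, the tag itself, was the largest, at 52.2, 42.8, 60.6 and 81.1 CPM in the Sca-1+ libraries and 11.1, 23.7, 17.3, 7.66 and 13.4 CPM in the Sca-1- libraries (a log2 fold change of 2.02 with a standard error of 0.34, adjusted p = 0.000894). Usp18, the protease that removes the tag and also restrains the type I receptor, was the smallest, at 86.7, 116, 89.6 and 97.98 CPM in the Sca-1+ libraries and 20.6, 58.3, 19.5, 37.7 and 43.1 CPM in the Sca-1- libraries (a log2 fold change of 1.45 with a standard error of 0.33, adjusted p = 0.00492). Trim25, which acts on RIG-I, and Trim30a lay between them at 1.88 and 1.49 on the log2 scale. Without both Sca-1+ library 19 and Sca-1- library 10 Trim30a differed by 1.17 and was not called (adjusted p = 0.0632).

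The enzymes of nucleotides and RNA again held both directions. Parp14, an ADP-ribosyltransferase, was higher, at 20.4, 30.1, 31.3 and 42.6 CPM in the Sca-1+ libraries and 0.7202, 1.53, 5.04, 3.71 and 4.64 CPM in the Sca-1- libraries (a log2 fold change of 3.30 with a standard error of 0.53, adjusted p = 0.000711). Isg20 (chromosome 7 from 78913424 to 78920396), an exonuclease that degrades RNA, was lower in every Sca-1+ library than in any Sca-1- library, at 18.6, 24.97, 18 and 23.6 CPM in the Sca-1+ libraries and 183, 193, 186, 101 and 109 CPM in the Sca-1- libraries (a log2 fold change of -2.86 with a standard error of 0.28, adjusted p = 4.98e-05). Its call held under every alternative run, and it had the smallest standard error of the 5 lower members. Cmpk2 and Rsad2 are neighbours on chromosome 12. Cmpk2, a mitochondrial kinase of nucleotides, was higher (a log2 fold change of 1.25 with a standard error of 0.35, adjusted p = 0.0152) and without Sca-1- library 14 had an adjusted p of 0.0549. Rsad2 (viperin), which makes a nucleotide that ends viral RNA chains, was 170.2, 168, 155 and 175 CPM in the Sca-1+ libraries and 40.6, 164, 27.6, 17.5 and 51.7 CPM in the Sca-1- libraries and was not called (a log2 fold change of 1.47 with a standard error of 0.56, adjusted p = 0.0531). Sca-1- library 10 alone reached the Sca-1+ level, and without it the log2 fold change was 2.22 and the adjusted p 0.000627.

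The other interferon-stimulated genes were all higher in Sca-1+ ECs, 7 of 7. Ifi44 was the largest, at 61.6, 60.01, 41.1 and 54.8 CPM in the Sca-1+ libraries and 0, 3.001, 0, 2.52 and 8.09 CPM in the Sca-1- libraries (a log2 fold change of 4.31 with a standard error of 1.15, adjusted p = 0.0115), with Sca-1- libraries 8 and 14 at 0. Without Sca-1- library 22 its log2 fold change was 5.3. Zbp1, a sensor of left-handed nucleic acid that can start cell death, was the smallest and overlapped, at 5.79, 13.6, 8.52 and 11.8 CPM in the Sca-1+ libraries and 1.44, 1.47, 1.86, 6.33 and 5.65 CPM in the Sca-1- libraries (a log2 fold change of 1.56 with a standard error of 0.55, adjusted p = 0.0401). Its adjusted p was 0.0674 to 0.105 when any of 6 single libraries was left out (Sca-1+ 13, 15 and 19, Sca-1- 8, 10 and 14). Bst2 (tetherin), which holds budding virus on the cell surface, differed by 3.41, Rtp4 by 3.87, Xaf1 by 2.88, and Ifi35 and Ifi27 by 1.74 each on the log2 scale, with no overlap. Without Sca-1- library 16 the value for Rtp4 was 4.5.

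**Figure D4:**
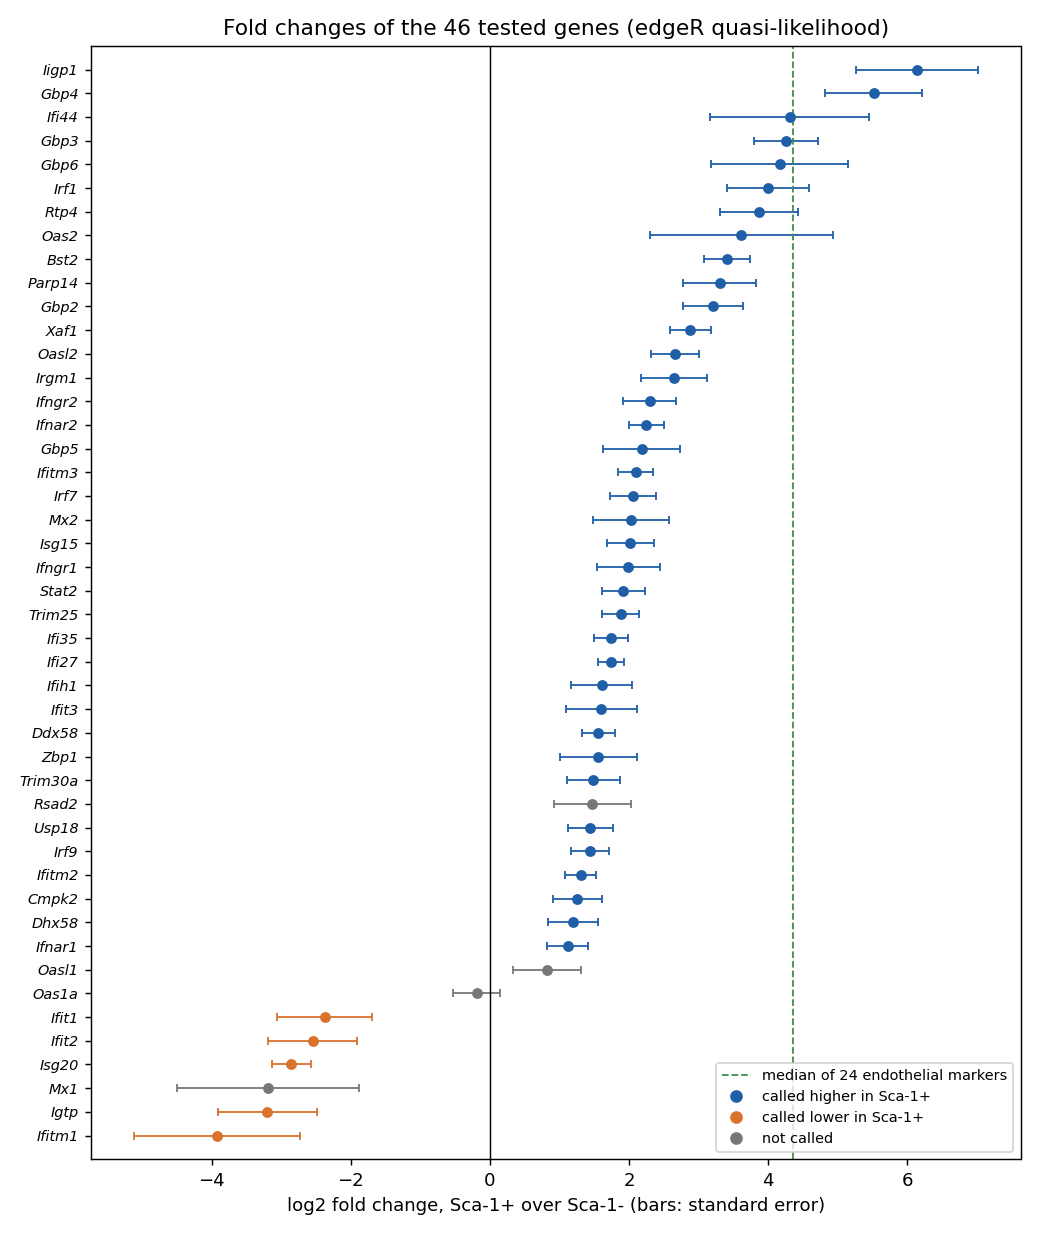
Log2 fold change (Sca-1+ over Sca-1-) with its standard error for the 46 tested members from edgeR's fit, sorted, in blue where called higher, orange where called lower and grey where not called. The dashed line marks the median of 24 endothelial markers (4.36), which only Iigp1 and Gbp4 pass.

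Within a fraction the libraries were not alike. Library 19 was the highest Sca-1+ library for 24 of the 37 members called higher and for 4 of the 5 called lower, while over all tested genes it was the highest for 33.3% and the lowest for 31.8%. Relative to the median of the other Sca-1+ libraries its level was 2.78 to 3.49 times for the immunity-related GTPases, 1.20 to 2.40 times for the transducer and regulatory factors, 1.01 to 1.04 times for the type I receptor and 0.658 to 0.786 times for the type II receptor. Its neutrophil markers summed to 802 CPM, against 11.5 to 125 CPM in the other Sca-1+ libraries. It also had the highest Sca-1+ sums of macrophage and monocyte markers (244 CPM against 135 to 192), erythroid markers (231 CPM against 106 to 135), B and plasma cell markers (352 CPM against 150.2 to 172), plasmacytoid dendritic cell markers (11.6 CPM against at most 1.63) and stromal and smooth muscle markers (3159 CPM against at most 2938). Other lists had their lowest Sca-1+ sums in library 19. These were general leukocyte markers (271.9 CPM against 311.5 to 321.3), T and NK markers (0.502 CPM against 0.9865 to 1.207) and megakaryocyte markers (47.8 CPM against 66.15 to 96.88). Its 21 endothelial markers also had the lowest sum (8971 CPM). The part of these cells in its values was not tested. Without both library 19 and Sca-1- library 10 there were 32 members called higher and 5 lower, against 18.1% and 19.2% of all genes tested.

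Among the Sca-1- libraries, 10 was the highest for 4 of the 5 members lower in Sca-1+ ECs and 16 the lowest for 4 of 5. Over all tested genes library 10 was the highest for 24.3% and library 16 the lowest for 18.1%. Igtp, Ifit1 and Ifit2 ranked the 5 libraries in the order 10, 8, 14, 22 and 16, which was also the order of the summed megakaryocyte markers in CPM. These were the only 3 of the 46 tested members with that order. The TMM factors, by which library sizes are multiplied, rose in the same order from 0.581 to 1.16, so the scaling alone moves CPM values towards it. As percentages of all counts, which use no TMM factor, Ifit1 and Ifit2 did not keep that order, since library 22 then stood above library 14 (0.0233% and 0.0223% for Ifit1), and Igtp kept it, from 0.231% in library 10 to 0.0577% in library 16, beside 6.36% to 3.03% for the megakaryocyte markers. Isg20 and Ifitm1 had other orders. The 21 endothelial markers were lowest in library 10 (269 CPM) and highest in library 22 (695 CPM), and library 22 was the highest Sca-1- library for 12 of the 37 higher members. Library 8 was the lowest Sca-1- library for 17 of the 37. Over all tested genes library 22 was the highest for 20.5% and library 8 the lowest for 24.1%. The part of these cells in the members' levels was not tested.

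**Figure D5:**
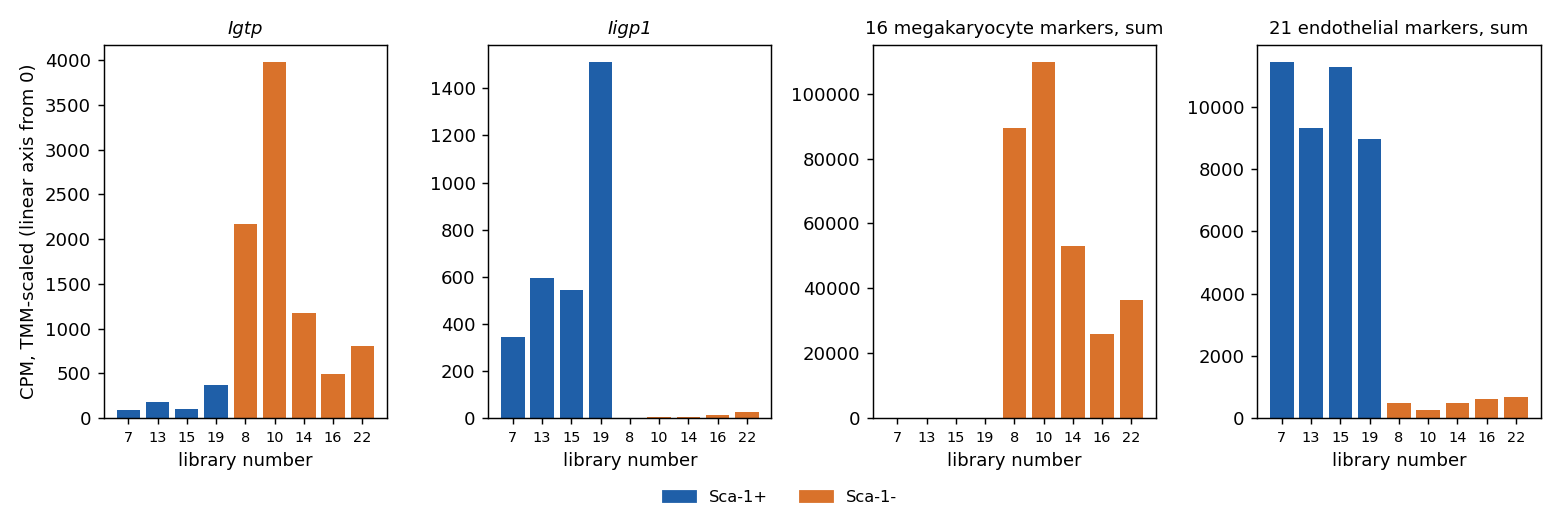
CPM of Igtp and Iigp1 and summed CPM of 16 megakaryocyte and 21 endothelial markers (without Pecam1, Esam and Vwf) in each of the 9 libraries, on linear axes from 0 that differ between panels. Igtp follows the same order of Sca-1- libraries as the megakaryocyte sum (10, 8, 14, 22, 16), which is also the order of their TMM factors from smallest to largest. Iigp1 is highest in Sca-1+ library 19 at 1510 CPM.

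The interferons themselves were barely counted. The 21 interferon genes listed gave a total of 1 to 16 counts per library, with no single gene above 12, none passed the filter, and 13 of their 22 rows were at 0 in all 9 libraries. Summed levels were 0.0386 to 0.238 CPM in the Sca-1+ libraries and 0.163 to 0.960 CPM in the Sca-1- libraries. Ifng had 0 counts in every library, which allows up to 0.116 CPM in a Sca-1+ library and 0.209 CPM in a Sca-1- library. Markers of plasmacytoid dendritic cells, known makers of type I interferon, summed to 0.510 to 11.6 and 5.86 to 48.2 CPM, and those of T and NK cells, makers of interferon gamma, to 0.502 to 1.21 and 21.7 to 81.9 CPM. Nkg7 alone gave 17.5 to 74.6 CPM of the T and NK sum in the Sca-1- libraries. Of these lists, 4 of 7 plasmacytoid dendritic cell markers and 10 of 12 T and NK markers did not pass the filter. Macrophage and monocyte markers summed to 135 to 244 and 797 to 2486 CPM, erythroid markers to 106 to 231 and 647 to 2397 CPM, stromal and smooth muscle markers to 738 to 3159 and 3324 to 41910 CPM, and B and plasma cell markers to 150.2 to 352 and 20.9 to 343 CPM. Single genes weighed on these sums. Lyz2 gave 771 to 2433 CPM of the macrophage and monocyte sum in the Sca-1- libraries, and 8 of that list's 10 tested markers were not called. Ebf1 gave 117 to 260 CPM of the B and plasma cell sum in the Sca-1+ libraries. Of the 13 stromal and smooth muscle markers, 6 were higher in Sca-1+ ECs, 2 lower and 5 not called, with a median log2 fold change of 1.98.

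Other genes of the pathway were called in both directions. Of 100 further pathway genes listed, 83 were tested, 45 were higher in Sca-1+ ECs, 8 were lower and 30 were not called, beside 23.3% higher and 21.4% lower over all genes tested, with a median log2 fold change of 1.23. By the log2 fold change, the largest rises were Apol9b at 6.68, Cxcl10 at 6.57 and Cxcl9 at 6.05, then Slfn5 at 5.32 and Ifi204, a DNA sensor, at 4.95. Sca-1- counts were at or under the floor in 4 of 5 libraries for Apol9b, 3 for Cxcl9, 2 for Slfn5 and 1 each for Cxcl10 and Ifi204, so these fitted values and their order are uncertain. Cxcl9 and Cxcl10 are chemokines that draw T cells. The largest falls were Ptpn6, a phosphatase of blood cells, at -4.95, Ikbke at -4.87, Stat4 at -4.06, Jak2, the kinase bound to Ifngr2, at -2.22 and Mavs, the adaptor below the RNA sensors, at -1.94. Ikbke was at or under the floor in 2 of 4 Sca-1+ libraries. Mean levels of Cxcl10 were 109.7 CPM in Sca-1+ ECs (SD 59.1, n = 4) and 1.17 CPM in the Sca-1- fraction (SD 0.852, n = 5). Those of Jak2 were 69.8 CPM (SD 14.2, n = 4) and 326 CPM (SD 147, n = 5). Those of Ptpn6 were 2.24 CPM (SD 2.20, n = 4) and 69 CPM (SD 26.7, n = 5), beside which general leukocyte markers summed to 272 to 321 CPM in Sca-1+ and 3802 to 7458 CPM in Sca-1- libraries. Apol9b shares 52.3% of its 50-base stretches with Apol9a.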

How the data were processed

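RNA was extracted from the sorted ECs and made into poly(A)-primed full-length cDNA libraries from 2 ng of total RNA. The authors deposited 1 table of raw read counts per Ensembl gene for all 9 libraries. The submitters' processing notes name STAR, featureCounts and mm10. Versions and the strand setting are not given in the sources used here. Groups came from the labels.

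The counts were fitted with edgeR 4.0.16 (R 4.3.3) after its filterByExpr (minimum count 10, minimum total 15). Libraries were scaled by TMM, and the fractions were compared by the two-sided quasi-likelihood F-test with Benjamini-Hochberg adjustment over 15937 genes (threshold 0.05). The standard error came from the F statistic. The scripts were tested on simulated data. DESeq2 1.42.0 and limma 3.58.1 (voom) were alternatives, with other scalings, no filter, a replicate block, left-out libraries and, added after seeing the data, the mark in the titles as a term. Libraries of 1 fraction differed by more than sampling noise. Exon lengths, overlaps of exons and coordinates are those of GENCODE M21 (GRCm38).

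The members and all lists were chosen with earlier results of these data known. Values in every library are given for the receptors, the transducer and regulatory factors, and the members with the largest and smallest log2 fold change in every other role group, and every member called lower is named. The pathway genes named have the 5 largest and 5 smallest log2 fold changes among those called, with no overlap and an average log2 CPM of 1 or more. Oasl1, Oasl2, Ifit1, Rsad2, Irgm1 and Irgm2 were given values beyond this rule after they were seen. Plots were drawn with matplotlib 3.10.9.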

Additional observations from a re-analysis of the deposited data

Results flagged for a closer look

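Among 92 groups of libraries of the tested members, 3 held a library whose gap to the nearest other library was a large part of the range of its fraction, and chance flags about 1 group in 20. Oasl1 in Sca-1+ library 15 had a log2 CPM of 3.23, against 3.80 to 3.87 in the other Sca-1+ libraries (9.28 CPM against 13.9 to 14.5). Gbp6 in Sca-1+ library 19 had a log2 CPM of 4.22, against 1.82 to 2.09 in the others (18.5 CPM against 3.45 to 4.18). Irf9 in Sca-1- library 8 had a log2 CPM of 4.45, against 5.55 to 5.75 in the others (21.8 CPM against 46.8 to 53.6).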

How the results depend on the processing

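There were 21 alternatives, of which 9 left out 1 library and 1 (the mark in the titles as a term) was added after seeing the data. Of the 46 tested members, 29 kept their side of the threshold and their direction under all 21, 13 lost the call under at least 1 and 3 not called gained it. Oas1a alone reversed, to 0.145 with library sizes alone and to 0.14 with the mark as a term. Library sizes alone also moved the members' median to 2.24 while the median of all genes moved to 0.43. The other alternatives gave 31 to 38 members higher and 4 to 5 lower, against 14.2% to 27.6% and 12.7% to 26.7% of all genes tested. Of the other pathway genes, 13 were lower with DESeq2 and 5 with consecutive label numbers (7 and 8, 13 and 14, 15 and 16) as a replicate block. Those fits called 26.7% and 13% of all genes tested lower. Leaving out 1 library gave 32 to 37 members higher, 3 to 6 lower, a median of 1.71 to 2.01, and 36 to 43 pathway genes higher and 6 to 10 lower. Over all genes tested, these fits called 18.9% to 23.8% higher and 17.4% to 22.8% lower. The longer response element GAAACNGAAA was found in 11 member promoters (0.792% of all genes), and the shorter AANNGAAA in 24 (26.7%).

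The labels do not state that consecutive numbers pair the libraries. Deviations correlated at 0.042 to 0.148 in the 3 consecutive pairs and at -0.191 to 0.065 in the other pairings. The highest values were those of libraries 13 and 14 (0.148) and 7 and 8 (0.147). These correlations are weak but do not exclude pairs. The main fit used no pairs because the labels state none. The block gave 31 members higher and 4 lower, against 32 and 5 for the same 6 libraries without it. Over all genes the shares were 14.2% and 13% with the block and 17.4% and 16.3% without it. Ifih1, Gbp5, Trim30a, Mx2, Oas2 and Zbp1 were called in neither of these fits, and Ifit2 and Dhx58 were not called with the block. Its pathway genes were 5 lower. DESeq2 gave no adjusted p for Gbp6, which stayed out of these counts. Levels near 3 counts (Mx1, Oas3, and Apol9b and Cxcl9 in Sca-1- libraries) limit what the depth can show.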
